A study of Mus musculus with 6 samples.

Results

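The Gadd45 genes and the Dusp genes of MAPK phosphatases were examined in liver sinusoidal endothelial cells (LSECs) of Txnip-/- and WT mice. The 10 members were *Gadd45a*, *Gadd45b* and *Gadd45g*, and *Dusp1*, *Dusp4*, *Dusp5*, *Dusp6*, *Dusp8*, *Dusp10* and *Dusp16*, and each had 1 of the 23282 rows in every count file. They were found by gene symbol, and the group was picked from earlier results of this same genotype comparison, so their fold changes are given here as a description without a test. Knockout mice lacked *Txnip*, the gene of thioredoxin-interacting protein, in the whole body on a C57BL/6J background, and the controls were C57BL/6J WT mice. LSECs were obtained by collagenase perfusion of the liver, an Opti-Prep gradient and anti-CD146 magnetic beads, with 3 libraries per genotype, no treatment in the labels, and age and sex of these mice not given in the sources used here. A Txnip-/- library therefore carries the loss in every cell type of the mouse and throughout its life, and the methods describe culture of the selected LSECs in endothelial growth medium without saying whether the RNA of these libraries was taken before or after it. The labels do not say that each library came from a separate mouse, so the spread between libraries may be partly technical.

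MAP kinases (ERK, JNK and p38) are switched on by phosphorylation of a threonine and a tyrosine, through a cascade in which a MAP3K activates a MAP2K and the MAP2K activates the MAPK. Dual-specificity phosphatases (DUSPs) remove both phosphates, and because many *Dusp* genes are themselves induced by the kinases they act as negative feedback. GADD45 proteins are small stress-induced proteins without enzyme activity of their own, which bind MAP3K4 and turn on the p38 and JNK branches, and which also bind cell cycle proteins such as PCNA, CDK1 and p21.

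The counts came from QuantSeq 3′ mRNA-Seq, in which reads start near the polyadenylated end of a transcript, so that counts were not scaled by transcript length. A count is an aligned read, and multiply aligned reads were counted too. Levels are given as CPM, in which each count is scaled by its library's total and TMM factor, as mean ± SD with n = 3 libraries per genotype. Library totals ran from 9147764 to 10193952 counts, and 3 counts, the floor of detection used here, equaled 0.286 to 0.335 CPM. Reads of the ribosomal precursor *Rn45s* made up 9.68% and 10.03% of WT replicates 2 and 1, and 16.8% to 18.6% of the other 4 libraries. The chi-square per degree of freedom between WT replicate 3 and WT replicate 1 was 37.0, and for WT replicate 2 it was 40.2. Between WT replicate 3 and each knockout library it was 13.3 to 17.1. No such distance was computed without *Rn45s*. The distances may therefore partly reflect the *Rn45s* difference and are not read as separate from it. *Txnip* itself held 191 to 269 counts per Txnip-/- library and 1901 to 2019 per WT library, so the labels matched the genotype in all 6 libraries. A gene was called when its adjusted p in edgeR's quasi-likelihood test was under 0.05 and its fold change was above 1.3. The study's methods give the second criterion as a log fold change, which was read here as a linear fold change. With 1.3 taken on the log2 scale, 57 genes and no member were called, so the call of *Gadd45b* depends on this reading. By the linear rule 167 of the 11583 tested genes, or 1.44%, were called, with 59 higher in Txnip-/- LSECs (0.509%) and 108 lower (0.932%).

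LSEC markers were abundant in every library, with summed levels of 4479 to 4893 CPM in Txnip-/- LSECs and 5165 to 6907 CPM in WT LSECs over 10 genes, led by *Lyve1*. All 10 had a lower mean in Txnip-/- LSECs and 1 was called lower. Markers of Kupffer cells, the liver macrophages, summed to 301 to 333 CPM in Txnip-/- and 725 to 757 CPM in WT libraries, with all 12 means lower in Txnip-/- LSECs, 10 called, and *Marco* the most abundant. Stellate cell markers, led by *Dcn*, summed to 47.7 to 63.4 CPM against 37.0 to 45.5 CPM in WT, with 7 of 8 means higher and 1 called. The sums for hepatocytes, led by *Alb*, were 34.5 to 48.5 CPM against 31.7 to 36.7 CPM, and cholangiocyte markers, led by *Sox9*, summed to 2.46 to 5.10 CPM against 1.36 to 4.65 CPM. Neutrophil markers, led by *S100a8*, stayed at or below 1.63 CPM with *Retnlg* at 0, and lymphocyte markers, led by *Cd79a*, at or below 0.428 CPM with *Cd3e*, *Cd3d*, *Ms4a1* and *Nkg7* at 0. The LSEC, Kupffer cell and stellate cell sums were each separated by genotype, and their part in the members' values was not tested. *Lyve1*, which leads the LSEC sum, itself overlapped, at 1475 to 1976 CPM in Txnip-/- and 1520 to 3780 CPM in WT libraries. *Dcn*, which leads the stellate cell sum, stood at 27.6 to 32.5 CPM against 14.2 to 17.1 CPM. No sum without these genes is given, so neither separation is read as a shift of its whole list. In bulk libraries fewer cells of a type and less RNA per cell cannot be told apart.

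Of the 10 members, 9 passed the filter on low counts and *Dusp5* had no count in any library. *Gadd45b* was called higher in Txnip-/- LSECs, no member was called lower, and the other 8 tested members were not called. The libraries of the genotypes did not overlap for 2 of the 9, *Gadd45b* and *Gadd45g*, against 17.4% of all tested genes, and since the members came from this comparison nothing is read from either count. The mean was higher in Txnip-/- LSECs for 5 tested members and lower for 4. The median log2 fold change of the 9 was 0.013, beside -2.75e-05 over all tested genes.

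**Figure D1:**
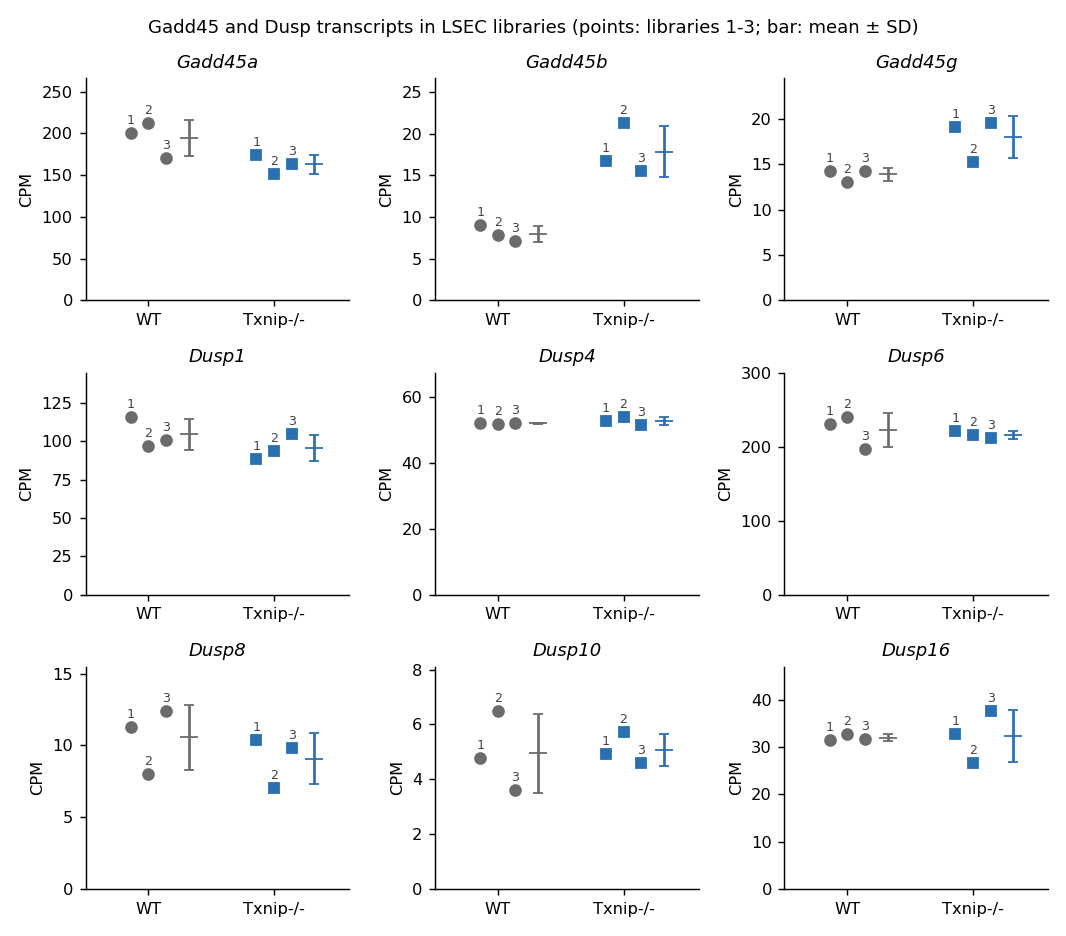
Level in CPM, on linear axes from 0, of the 9 members with counts in the 3 WT (gray circles) and the 3 Txnip-/- libraries (blue squares), each numbered point 1 library and each bar the mean ± SD. The genotypes separate for *Gadd45b* (15.5 to 21.3 CPM against 7.09 to 9.05 CPM) and *Gadd45g* (15.3 to 19.6 CPM against 13.1 to 14.3 CPM) and overlap for the other tested members.

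*Gadd45b*, the family member known for rapid induction by TGF-beta and NF-kappa B signals, lies on the plus strand of chromosome 10 of GRCm38 from 80930073 to 80932204, with 4 exons and a 3′ untranslated region of 558 bases in exon 4. It had 150, 209 and 145 counts in Txnip-/- replicates 1, 2 and 3, or 16.7, 21.3 and 15.5 CPM. The WT libraries held 93, 82 and 67 counts, or 9.05, 7.81 and 7.09 CPM. The lowest Txnip-/- library was thus above the highest WT library, and Txnip-/- replicate 2 stood highest. The means were 17.9 ± 3.05 and 7.98 ± 0.994 CPM, a 2.23-fold difference with a 95% interval of 1.58 to 3.16 and a log2 fold change of 1.16 (SE 0.24). Counting error alone would give a log2 SE of 0.11 at these counts. The coefficient of variation between libraries was 17.1% in Txnip-/- LSECs and 12.5% in WT LSECs, where the counts alone give 7.72% and 11.1%, so the WT libraries varied little more than counting allows. The call was lost without Txnip-/- replicate 1, Txnip-/- replicate 2 or WT replicate 2, while the log2 fold change stayed between 1.01 and 1.26 over the 6 fits that each left out 1 library.

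*Gadd45a*, the founding member of the family and a p53 target induced by DNA damage, lies on the minus strand of chromosome 6 from 67035096 to 67037457, with 4 exons and a 3′ untranslated region of 563 bases. It was the most abundant of the 3 *Gadd45* genes, above 91.6% of tested genes. The Txnip-/- replicates stood at 174.4, 151.4 and 162.8 CPM, and the WT replicates at 200.2, 212.7 and 170.2 CPM. WT replicate 3 lay below Txnip-/- replicate 1, so the genotypes overlapped through that 1 library. The means were 163 ± 11.5 and 194 ± 21.9 CPM, a ratio of 0.838 (95% interval 0.721 to 0.973) and a log2 fold change of -0.26 (SE 0.10), which was not called. Without WT replicate 3 the log2 fold change was -0.34.

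*Gadd45g*, a member known for roles in differentiation and in T cell p38 signaling, lies on the plus strand of chromosome 13 from 51846678 to 51848468, with 4 exons and a 3′ untranslated region of 489 bases. Its Txnip-/- libraries held 171, 150 and 183 counts, and its WT libraries 147, 137 and 135. In CPM these were 19.1, 15.3 and 19.6 against 14.3, 13.1 and 14.3. Every Txnip-/- library was above every WT library, but the lowest, Txnip-/- replicate 2, exceeded the highest WT library by about 1 CPM. The fold change was 1.295 with a 95% interval of 0.959 to 1.75, which includes no change, and the log2 fold change was 0.37 (SE 0.21).

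The makeup of the *Gadd45* counts within a library can be given free of library scaling. Of the *Gadd45* counts, *Gadd45a* held 83.0%, 80.5% and 82.3% in the knockout replicates against 89.6%, 91.1% and 88.8% in the WT replicates. *Gadd45b* held 7.97%, 11.3% and 7.83% against 4.05%, 3.34% and 3.70%. *Gadd45g* held 9.08%, 8.13% and 9.89% against 6.40%, 5.59% and 7.45%. The genotypes did not overlap in any of these shares, which sum to 100% in a library and so are not independent of each other. In WT LSECs *Gadd45g* outnumbered *Gadd45b* in every library, with mean shares of 6.48% and 3.70%. In Txnip-/- LSECs the mean shares were 9.03% for *Gadd45g* and 9.04% for *Gadd45b*. *Gadd45g* still outnumbered *Gadd45b* in Txnip-/- replicates 1 and 3, and only replicate 2 went the other way. The near-equal means therefore rest on that 1 library. The summed level of the family was 199 ± 11.2 CPM in Txnip-/- and 216 ± 22.0 CPM in WT LSECs, a ratio of 0.919, and the libraries of the genotypes overlapped. The additional *Gadd45b* and *Gadd45g* counts were therefore small beside the *Gadd45a* counts.

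**Figure D2:**
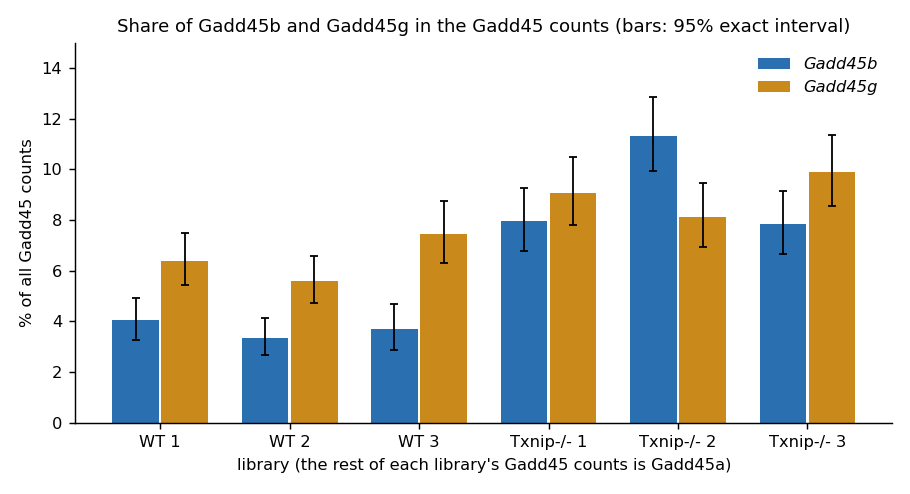
Share of the summed *Gadd45* counts, in percent, held by *Gadd45b* and *Gadd45g* in each of the 6 libraries, with exact Clopper-Pearson 95% intervals for counting error only. The remainder is *Gadd45a*. *Gadd45b* holds 7.83% to 11.3% in the Txnip-/- libraries and 3.34% to 4.05% in the WT libraries, and *Gadd45g* 8.13% to 9.89% and 5.59% to 7.45%.

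The promoter windows of the 3 genes are shown because the genes encode 1 protein family and *Gadd45b* alone among them was called. Each window holds 300 bases from RefSeq on GRCm38.p6, 250 before and 50 from the annotated start, on the strand of the gene, with matches to CCAAT (or its complement ATTGG) and to TATAAA in capitals. The window of *Gadd45a* is chr6:67037358-67037657 on the minus strand, that of *Gadd45b* chr10:80929841-80930140 on the plus strand and that of *Gadd45g* chr13:51846425-51846724 on the plus strand.
Gadd45a: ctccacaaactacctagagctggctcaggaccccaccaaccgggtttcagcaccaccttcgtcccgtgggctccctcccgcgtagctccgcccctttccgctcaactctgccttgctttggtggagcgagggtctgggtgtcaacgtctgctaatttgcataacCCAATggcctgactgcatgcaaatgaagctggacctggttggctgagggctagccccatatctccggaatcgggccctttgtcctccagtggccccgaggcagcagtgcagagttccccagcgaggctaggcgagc
Gadd45b: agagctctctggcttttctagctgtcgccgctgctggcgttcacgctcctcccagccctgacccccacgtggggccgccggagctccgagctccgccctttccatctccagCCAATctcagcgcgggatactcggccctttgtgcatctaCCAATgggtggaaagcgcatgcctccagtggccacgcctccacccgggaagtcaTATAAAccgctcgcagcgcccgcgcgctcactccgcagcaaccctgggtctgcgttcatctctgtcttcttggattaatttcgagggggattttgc
Gadd45g: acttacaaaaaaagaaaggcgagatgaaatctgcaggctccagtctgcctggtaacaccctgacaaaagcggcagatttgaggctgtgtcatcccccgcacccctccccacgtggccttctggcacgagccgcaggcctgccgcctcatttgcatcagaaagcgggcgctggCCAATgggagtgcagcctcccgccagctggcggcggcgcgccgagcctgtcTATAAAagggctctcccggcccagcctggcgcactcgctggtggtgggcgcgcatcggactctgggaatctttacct
*Gadd45b* held CCAAT at 139 and 100 bases before the start, *Gadd45a* at 86 bases and *Gadd45g* at 78 bases. CCAAT or its complement was in 7 of the 9 member windows and in 37.4% of all 32851 windows. TATAAA was at 46 bases before the start in *Gadd45b* and at 27 bases in *Gadd45g*, and it was in no other member window and in 13.6% of all windows. Neither the AP-1 letters TGACTCA (5.20% of all windows) nor the kappa B consensus (8.46%) was found in a member window. All searches read both strands, and a match of letters is a description of the sequence and not a site of binding.

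The DUSPs are given by the compartment in which they act and the kinases they prefer. *Dusp1*, *Dusp4* and *Dusp5* encode nuclear phosphatases that are induced by growth factors and stress. *Dusp1*, an immediate early gene whose product acts on p38, JNK and ERK, has a transcript on the minus strand of chromosome 17 from 26505590 to 26508519, with 4 exons. Txnip-/- replicates 1, 2 and 3 stood at 88.8, 93.5 and 104.9 CPM, against 115.9, 97.1 and 100.9 CPM for WT. Txnip-/- replicate 3 lay above WT replicates 2 and 3, and the genotypes overlapped. The ratio was 0.915 (95% interval 0.779 to 1.07) and the log2 fold change -0.13 (SE 0.11), which moved between -0.20 and -0.05 when 1 library was left out.

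*Dusp4*, which acts on ERK and JNK in the nucleus and lies on the plus strand of chromosome 8 from 34807297 to 34819894, was the steadiest member. The Txnip-/- replicates held 52.7, 53.8 and 51.5 CPM, next to 51.9, 51.6 and 52.1 CPM for WT. The coefficient of variation was 2.17% and 0.496%, below the 4.50% and 4.37% that its counts alone would give. The fold change was 1.02 with a 95% interval of 0.854 to 1.21. *Dusp5*, whose product is specific to ERK, lies on the plus strand of chromosome 19 from 53529109 to 53542431. It had 0 counts in all 6 libraries. If its row covered the transcript end, this allows a level of up to 0.286 to 0.335 CPM depending on the library.

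*Dusp6*, which encodes a cytoplasmic phosphatase of ERK and lies on the plus strand of chromosome 10 from 99263231 to 99267489, was the most abundant member, above 93.5% of tested genes. Txnip-/- replicates 1, 2 and 3 held 1984, 2115 and 1977 of its counts, and the WT replicates 2370, 2520 and 1860. The levels were 221.5, 215.6 and 211.4 CPM against 230.7, 240.1 and 196.7 CPM. The WT libraries spanned the range of the Txnip-/- libraries on both sides, with WT replicate 3 the lowest of the 6. The ratio was 0.971 with a 95% interval of 0.846 to 1.12. *Gadd45a* and *Dusp6*, the most abundant members, were both lowest among the WT libraries in replicate 3, and so were the less abundant *Gadd45b* and *Dusp10*.

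*Dusp8*, *Dusp10* and *Dusp16* encode the phosphatases that prefer JNK and p38. *Dusp16*, on the minus strand of chromosome 6 from 134715468 to 134792625, stood at 32.8, 26.5 and 37.5 CPM in Txnip-/- replicates 1, 2 and 3, against 31.5, 32.8 and 31.6 CPM for WT. Its Txnip-/- libraries fell on both sides of the WT range, with a coefficient of variation of 17.1% against 2.15%, and the fold change was 1.01 (95% interval 0.798 to 1.28). *Dusp8*, on the minus strand of chromosome 7 from 142079490 to 142095843, had 93, 69 and 92 counts against 116, 84 and 117 in WT. Replicate 2 was the lowest library in both genotypes, the ranges overlapped, and the ratio of 0.861 had a 95% interval of 0.574 to 1.29. *Dusp10*, on the plus strand of chromosome 1 from 184013302 to 184075636, was the least abundant member with counts, with 44, 56 and 43 counts against 49, 68 and 34. Its fold change of 1.02 had a 95% interval of 0.582 to 1.80, which includes a difference of the size seen for *Gadd45g*. Its log2 SE was 0.39, of which counting error alone would give 0.17.

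The 6 tested *Dusp* members had a median log2 fold change of -0.014, none was called (1.44% of all tested genes) and none was free of overlap between the genotypes (17.4%), shares at which 6 genes would give few or none. For *Dusp1*, *Dusp4*, *Dusp6* and *Dusp16* the 95% interval lay inside 0.769 to 1.3, the range within the fold threshold in either direction. The intervals of *Dusp8* and *Dusp10* reached beyond it. The 6 genes summed to 411 ± 8.80 CPM in Txnip-/- and 426 ± 25.7 CPM in WT LSECs. *Dusp6* held 52.6% of the *Dusp* counts in Txnip-/- and 52.1% in WT LSECs, *Dusp1* 23.3% and 24.5%, *Dusp4* 12.8% and 12.2%, and *Dusp16* 7.84% and 7.51%. The makeup of the *Dusp* counts thus moved by little more than 1 percentage point for any gene.

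**Figure D3:**
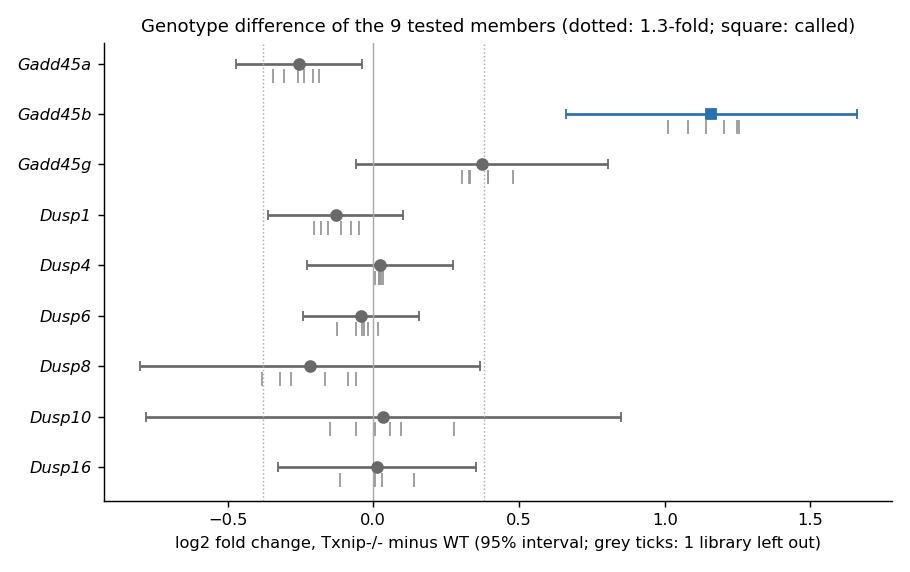
Log2 fold change of the 9 tested members, Txnip-/- minus WT, with 95% intervals from the fit across all genes, gray ticks for the fits that each left out 1 library, dotted lines at a fold change of 1.3 in either direction, and a square for the called member. The intervals of *Gadd45b* and *Gadd45a* exclude 0, on opposite sides, and those of the other 7 include it, with the widest for *Dusp10*. The intervals are per gene and unadjusted, and *Gadd45a* was not called. In edgeR's quasi-likelihood test 11.5% of all tested genes had an unadjusted p under 0.05.

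In WT LSECs the members ran in level from *Dusp6* (222 ± 22.8 CPM) and *Gadd45a* (194 ± 21.9 CPM) through *Dusp1* (105 ± 9.97 CPM), *Dusp4* (51.9 ± 0.257 CPM) and *Dusp16* (31.98 ± 0.687 CPM) to *Gadd45g* (13.9 ± 0.718 CPM). Below these came *Dusp8* (10.6 ± 2.28 CPM), *Gadd45b* (7.98 ± 0.994 CPM) and *Dusp10* (4.95 ± 1.45 CPM), with *Dusp5* at 0. The library ranges of *Dusp6* and *Gadd45a* overlapped, as did those of *Dusp8* and *Gadd45b*, and the other neighbors were separated. In Txnip-/- LSECs *Gadd45b* (17.9 ± 3.05 CPM) and *Gadd45g* (17.98 ± 2.34 CPM) overlapped each other, and both were above *Dusp8* (9.08 ± 1.80 CPM). *Gadd45b* thus passed *Dusp8* in the order, and the other members kept their places.

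The letters of AU-rich elements, which mark many short-lived transcripts of immediate early genes, were counted in the 3′ untranslated regions because they divide the members. *Dusp1* held 4 ATTTA and 3 TATTTAT, *Dusp8* held 5 and 2, and *Gadd45a* held 2 and 1. *Gadd45b* and *Gadd45g* held neither, and the other members held 1 to 3 ATTTA without the longer letters. TATTTAT was in 3 of 10 members and in 29.1% of the 10615 tested genes with a 3′ untranslated region, so the members' share was near the background. The sites of *Gadd45a* and *Dusp1* are shown with the flanking bases of the transcript, TATTTAT in capitals, and the distance from the first capital to the transcript end in parentheses.
Gadd45a (59 bases): atgtgaaaggtTATTTATgataaagtttt
Dusp1 (587 bases): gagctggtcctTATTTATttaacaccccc
Dusp1 (298 bases): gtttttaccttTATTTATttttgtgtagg
Dusp1 (102 bases): gtatgtttgttTATTTATgatctgaagta
The full cyclic AMP response element TGACGTCA was in the promoter windows of *Dusp1*, 143 bases before the start, and of *Dusp8*, 107 and 63 bases before it, and in 1.79% of all windows. Outside the full element, the letters TGACG were in the windows of *Dusp1*, *Dusp5* and *Dusp16* and in 19.5% of all windows. The CArG box, the letters known for serum response factor, was in the window of *Dusp5* at 82 and 72 bases before the start, and in 1.63% of all windows. *Dusp5* had no count in any library. The annotation used for counting was not given, so it is not known whether its row covered the transcript end.

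The genes whose profiles over the 6 libraries were most like those of *Gadd45b* and *Dusp1* were found by the root mean square difference of log2 CPM, each gene centered on its own mean, among 8025 genes averaging at least 10 CPM. For *Gadd45b* they were *Axl* (0.118), *Bco1* (0.146), *Dcn* (0.158), *Tnc* (0.162) and *Cxcl2* (0.165). All 5 were higher in every Txnip-/- library than in any WT library, a pattern that the choice by likeness fixes. *Bco1* encodes an enzyme that cleaves beta-carotene, *Dcn* the matrix proteoglycan decorin and *Tnc* the matrix protein tenascin C. *Axl*, a receptor tyrosine kinase, had 45.2 ± 6.26 CPM in Txnip-/- against 21.7 ± 2.53 CPM in WT LSECs, and *Cxcl2*, a neutrophil chemokine, 332 ± 8.54 CPM against 147 ± 10.6 CPM. *Dcn* is also on the stellate cell list. For *Dusp1* they were *Oxr1* (0.036), *Glyr1* (0.041), *Fam160a2* (0.042), *Mef2a* (0.048) and *Dcaf7* (0.050), none of which was called.

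The other genes of MAPK signaling and its feedback were read from 10 lists with 113 genes, of which 94 were tested. None of the 94 was called in either direction by edgeR's quasi-likelihood test, and 8, or 8.51%, had an unadjusted p under 0.05, against 11.5% of all tested genes. DESeq2 called 1 of the listed genes, *Arrb1*, and limma-trend called 0. The genotypes did not overlap for 13 of them, or 13.8%, against 17.4% of all tested genes. Their median log2 fold change was -0.023, and 42 means were higher and 52 lower in Txnip-/- LSECs. The share of small p-values was thus not above the background.

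No phosphatase outside the members was called, and the list medians lay between -0.065 and 0.060. *Dusp7*, a cytoplasmic phosphatase of ERK and a close relative of *Dusp6*, was the only one of 3 other MAPK phosphatases to pass the filter, at 59.0 ± 5.33 CPM in Txnip-/- and 56.5 ± 9.80 CPM in WT LSECs. *Dusp2* lay between 0.335 and 1.14 CPM and *Dusp9* between 0 and 0.317 CPM. Of 10 atypical and other dual-specificity phosphatases 9 were tested, with a median log2 fold change of 0.0056, and the smallest p-values were those of *Dusp23* (log2 fold change -0.30, SE 0.17) and *Dusp18* (1.24, SE 0.91), the latter at 0.112 to 4.49 CPM. *Dusp3*, the most abundant of the listed DUSP genes, stood at 287 ± 8.22 CPM against 286 ± 19.7 CPM, but its last 500 bases overlap an exon of *Gm20659* on the opposite strand. Of 7 other phosphatases of MAPKs 4 were tested, with a median of -0.065, and *Ppm1a* (0.08) and *Ppm1b* (-0.08) had the smallest p-values.

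Inhibitors of the growth factor to ERK route were listed as the Sprouty and Spred genes with *Errfi1*. Of 8 such genes 7 were tested, with 5 means higher and a median log2 fold change of 0.34. An unadjusted p under 0.05 was found for 2 of the 7, or 28.6%, against 11.5% of all tested genes, and 3, or 42.9%, were without overlap against 17.4%, and nothing particular to so short a list is read from these shares. *Spry4*, a Sprouty gene that is induced by ERK signaling, stood at 49.1, 43.0 and 53.6 CPM in the Txnip-/- replicates, against 40.1, 39.6 and 34.8 CPM for WT. *Errfi1*, which encodes an inhibitor of the EGF receptor, stood at 49.4, 39.96 and 40.2 CPM against 31.2, 35.2 and 36.1 CPM. Every Txnip-/- library was above every WT library in both, by margins of a few CPM. Neither passed the adjusted threshold in edgeR's quasi-likelihood test (log2 fold change 0.35, adjusted p = 0.322 for *Spry4*; 0.34, adjusted p = 0.376 for *Errfi1*).

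Along the cascade itself 16 of 18 MAP3K genes, 7 of 7 MAP2K genes and 10 of 14 MAPK genes were tested, with median log2 fold changes of -0.096, 0.13 and -0.060. Of the untested MAP3K genes, *Map3k5* had 0, 2 and 1 counts in Txnip-/- replicates 1, 2 and 3, against 19, 10 and 14 in WT. The genotypes did not overlap for *Map3k5*, with its Txnip-/- counts under the floor of 3. *Map3k13* had 0, 12 and 9 counts against 4, 11 and 3. No fold change was fitted for either gene. *Map3k4*, the MAP3K that GADD45 proteins bind, stood at 24.2, 29.9 and 27.8 CPM in the Txnip-/- replicates, against 19.0, 19.4 and 20.7 CPM for WT. Its libraries did not overlap, the log2 fold change was 0.47 (SE 0.17), and the adjusted p of edgeR's quasi-likelihood test was 0.265. *Map3k7*, the gene of TAK1, was at 110 ± 1.61 CPM in Txnip-/- and 113 ± 3.10 CPM in WT LSECs. *Map3k11*, an activator of JNK, was at 22.8 ± 2.82 CPM against 17.3 ± 2.02 CPM (adjusted p = 0.440). *Map2k3* and *Map2k4*, which activate p38 and JNK, had log2 fold changes of 0.14 and 0.13, and *Mapk7* and *Mapk12*, an ERK5 and a p38 gene, of -0.22 and -0.23.

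Among 8 tested genes of 11 for the TAK1 complex and MAPK scaffolds, *Arrb1*, which encodes beta-arrestin 1, came nearest to a call. The Txnip-/- replicates held 38.2, 34.9 and 44.4 CPM, and the WT replicates 60.1, 52.6 and 58.7 CPM. The genotypes did not overlap, the log2 fold change was -0.55 (SE 0.14) and the adjusted p of edgeR's quasi-likelihood test was 0.0549. *Traf6*, a ubiquitin ligase upstream of TAK1, had a log2 fold change of -0.21 (SE 0.19), and the median of this list was -0.038.

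The p53 targets and the cell cycle partners of GADD45 proteins had a median log2 fold change of -0.014 over 13 tested of 14. *Cdkn1a*, the gene of p21, was by far the most abundant, at 3654 ± 84.1 CPM in Txnip-/- and 3523 ± 363 CPM in WT LSECs. *Sesn1*, a p53 target, stood at 10.8, 8.26 and 10.3 CPM against 19.8, 16.8 and 10.8 CPM, where WT replicate 3 met the Txnip-/- libraries (log2 fold change -0.69, adjusted p = 0.283 in edgeR's quasi-likelihood test). *Plk2*, another p53 target, was at 161 ± 27.4 CPM against 130 ± 3.09 CPM (adjusted p = 0.279).

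Immediate early genes, the class that stress and tissue dissociation are known to induce together with *Dusp1* and *Gadd45b*, were tested for 19 of 21. Together they summed to 2931, 2957 and 2752 CPM in the Txnip-/- replicates, against 2806, 2818 and 2849 CPM for WT, so the genotypes overlapped. *Klf6*, a zinc finger transcription factor gene, was the largest single part of this sum, at 1344 ± 38.1 CPM in Txnip-/- and 1354 ± 23.8 CPM in WT LSECs. The median log2 fold change was -0.010, and 4 of the 19 genes, or 21.1%, were without overlap against 17.4% of all tested genes, with *Jun*, *Junb* and *Egr1* higher and *Hspa1a* lower in every Txnip-/- library than in any WT library. *Junb*, an AP-1 subunit, stood at 110 ± 7.62 CPM against 87.9 ± 7.47 CPM (log2 fold change 0.33, adjusted p = 0.187 in edgeR's quasi-likelihood test). *Hspa1a*, a heat shock gene that may share reads with its near-identical copy *Hspa1b*, stood at 91.2 ± 10.1 CPM against 112 ± 5.97 CPM (adjusted p = 0.260 in the same test). Sharing of reads was not measured.

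**Figure D4:**
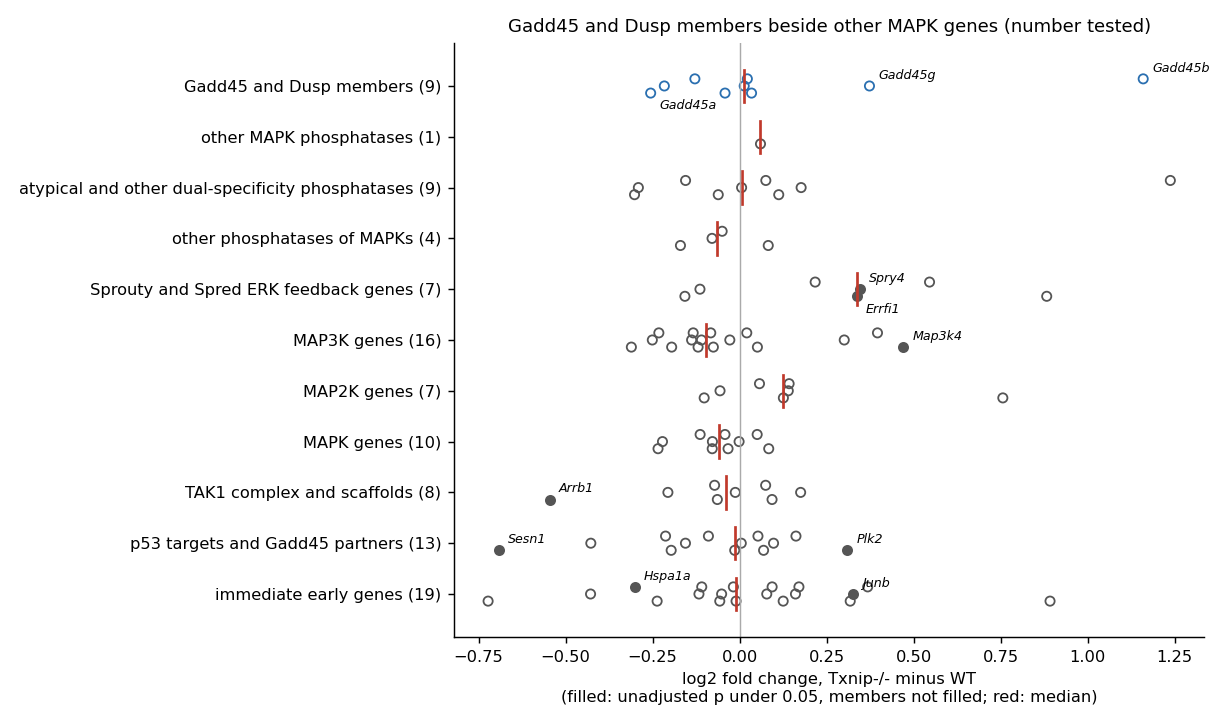
Log2 fold change, Txnip-/- minus WT, of the 9 tested members and of the tested genes in 10 lists of MAPK signaling and its feedback, 1 point per gene and a red bar at each median. Filled points have an unadjusted p under 0.05 (members are not filled), and *Gadd45b* lies at 1.16 while the list medians lie between -0.10 and 0.34.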

How the data were processed

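RNA of LSECs was measured in 3 Txnip-/- and 3 WT libraries, grouped by the genotype in the labels. The authors sequenced QuantSeq 3′ libraries single-end, aligned reads with Bowtie2 (mm10 in the submitters' processing notes), used bedtools to count both uniquely and multiply aligned reads, and deposited whole-number counts without normalization. Versions, annotation and use of strand were not given in the sources used here. Each file held 23282 rows, 44 of them repeats of a symbol that were kept apart.

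The quasi-likelihood test of edgeR 4.0.16 (R 4.3.3) compared genotypes over the 11583 genes that passed filterByExpr, after TMM scaling, with no further term, and p-values were adjusted by Benjamini-Hochberg over all of them. Each standard error was the log2 fold change divided by the root of F. Alternatives were RLE or no factors, DESeq2 1.42.0, limma-trend (limma 3.58.1, prior count 2), no filter, no fold threshold, a replicate block and each library left out. A fit without *Rn45s* and a log2 fold change above 1.3 were added after seeing the data. Deviations of same-numbered libraries had correlations of -0.030, 0.017 and -0.047, which gives no sign of pairing.

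The members, lists and tests were chosen with earlier results of these data known. Named are the members, *Txnip*, in each pathway list any gene called and otherwise those with the 2 smallest p-values, the genes of most similar profile, and per marker list the most abundant gene and those at 0. *Rn45s*, *Dusp2*, *Dusp3*, *Dusp9*, *Cdkn1a*, *Map3k5*, *Map3k7*, *Map3k13*, *Klf6*, *Jun*, *Egr1*, *Gm20659* and *Hspa1b* were named after their values were seen, and so were the AU-rich, CCAAT and TATAAA letters searched. *Map3k20* was matched under its older symbol *Zak*, and *Ly6g* was not analysed here. Positions and 3′ untranslated regions are those of GENCODE M21 on GRCm38, and no exon of another gene overlapped the last 500 bases of a coding transcript of a member. Promoters are those of RefSeq on GRCm38.p6, matched by symbol for 9 of 10 members. Protein sequences were not used here. Reads carry no molecular identifiers in the sources used here, so floors and counting errors cover counting error only.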

Additional observations from a re-analysis of the deposited data

How the results depend on the processing

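Of 11583 tested genes 167 were called (59 higher, 108 lower). The count was 169 with RLE factors, 180 without factors (35 higher, 145 lower, with the median of all genes shifted by -0.08), 219 with DESeq2, 172 with limma-trend, 179 without the fold threshold, 167 without *Rn45s*, 301 without the filter and 108 with the replicate block, and it ran from 89 (without WT replicate 1) to 301 (without WT replicate 3) when 1 library was left out. With the threshold read as a log2 fold change above 1.3 it was 57 (10 higher, 47 lower), with 0 members. *Gadd45b* was called in 11 of 15 alternatives, and 0 to 1 members were called with 1 library left out. Beside that threshold, the call was lost when Txnip-/- replicate 1 (log2 fold change 1.20), Txnip-/- replicate 2 (1.01) or WT replicate 2 (1.14) was left out, fits with fewer samples. Its log2 fold change was 1.15 with the replicate block, which changed no call of a member or listed gene. Without WT replicate 3 *Gadd45a* passed the adjusted threshold of 0.05, but its fold change stayed under 1.3. Fold changes changed sign in 1 alternative for *Dusp4* and *Dusp6* and in 3 for *Dusp10* and *Dusp16*, none of them called. Of the listed pathway genes 1, *Arrb1*, was called without factors, with DESeq2 and without the filter, and the cause was not tested. At the counts of *Dusp8* and *Dusp10* counting error alone gives log2 SEs of 0.12 and 0.17, of fitted SEs of 0.28 and 0.39 over 3 libraries per genotype, and *Dusp5* could not be compared.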
